A study of Mus musculus with 20 samples.

Results

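Exposure to an artificial cigarette smoke odor was compared with exposure to its vehicle in the GFP- cells sorted from the olfactory mucosa of S100a5-tauGFP mice. All samples labelled GFP- were taken, which gave 10 of the 20 samples of the series, 5 from odor pools and 5 from vehicle pools. Each sample was RNA from the sorted cells of 3 mice hybridised to 1 Clariom S array, and the other 10 samples were the GFP+ cells of the same 10 pools. All groups carried the S100a5-tauGFP reporter and came from 30 mice of both sexes aged 7 to 12 weeks. Every mouse spent 40 h alone in a chamber that was flushed with clean air at 3.1 L/min. Once 26 h had passed, odor mice received pulses of the smoke odor lasting 10 s at intervals of 20 min, and vehicle mice received filtered air on the same schedule. The design text of the series names bourgeonal as the stimulus, whereas the sample labels name the artificial cigarette smoke odor. The sample labels were followed. The genetic construction of the reporter and the composition of the odor mixture were not given in the sources used here.

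S100a5 is a calcium-binding protein gene of olfactory sensory neurons whose expression depends on recent odor-evoked activity, so that GFP in this strain marks neurons that have responded. The GFP- gate therefore collects what is left of the dissociated mucosa. It can hold sensory neurons that were not activated, immature neurons, basal stem cells, sustentacular supporting cells, gland cells, and the leukocytes of the mucosa, its blood and the adjoining bone marrow. A sensory neuron expresses 1 odorant receptor gene out of a large family, and the supporting cells are rich in cytochrome P450 enzymes that metabolise inhaled chemicals.

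The markers of the gate were those of a mixture, with neutrophils and mature neurons both prominent. Signals are given as log2 values. S100a8, a calcium-binding protein of neutrophils, had signals from 15.86 to 18.43 in GFP- cells and from 6.10 to 7.57 in GFP+ cells. The neutrophil granule protein genes Ngp and Lcn2 reached 17.09 to 19.18 and 16.98 to 18.88 in GFP- cells, against 6.40 to 8.50 and 5.00 to 8.01 in GFP+ cells. Omp, the marker of mature olfactory sensory neurons, had signals from 18.09 to 19.60 in GFP- cells and from 18.29 to 19.65 in GFP+ cells. These signals lay close to the top of the array's scale, where differences can be compressed. Markers of monocytes (Lyz2, Csf1r, Ccr2), B cells (Cd79a, Cd79b), immature neurons (Gap43, Gng8), sustentacular cells (Cyp2g1, Cyp1a2, Ermn), glands (Sox9, Bpifa1) and microvillar cells (Trpm5, Ascl3, Foxi1) exceeded the median background control of their own array on all 10 arrays. Krt5, Krt14 and Trp63 of horizontal basal cells, Neurog1 of globose basal cells and S100b of glia exceeded it on 0 arrays.

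The arrays differed in ways that the groups did not explain. The odor and vehicle arrays numbered 5 had median signals of 7.46 and 7.40, whereas the other 8 lay between 6.27 and 6.39, and both were treated as 1 batch, of unknown origin, that held 1 array of each group. Within the vehicle group, the array of replicate 1 stood apart. Its mean correlation with the other vehicle arrays was 0.895 and the SD of its signals was 2.59, whereas the mean correlations of the other 9 arrays within their groups were 0.941 to 0.974. Its list means lay below those of the other arrays numbered 1 to 4 for several neuronal lists. From the batch mean they lay at -1.35 for mature neuron genes, -1.68 for axon guidance genes and -1.16 for immature neuron genes. For odorant receptor genes its mean (-0.31) lay above those of vehicle replicate 3 (-0.57) and odor replicate 2 (-0.39). For ribosomal protein genes it lay above all of them, at 0.73, and for immediate early genes below them, at -1.32. The list means of odor replicate 2 lay off the batch mean in the same directions for immature neuron genes (-0.55) and for immediate early genes (-0.93). Results that rest on vehicle replicate 1 are given with and without it. The Y-linked genes Eif2s3y, Uty and Kdm5d were lowest in both pools numbered 3, with Eif2s3y at 2.89 in the odor pool and 3.17 in the vehicle pool, whereas it lay between 7.43 and 11.91 in the other 8 pools.

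No gene differed between odor and vehicle GFP- cells after correction for the number of genes. In limma, with a term for the arrays numbered 5, 0 of 22206 probe sets (0%) had a Benjamini-Hochberg adjusted p under 0.05, and the smallest adjusted p was 1. Without adjustment, 234 probe sets (1.05%) had a p under 0.05, of which 69 (0.311%) were higher and 165 (0.743%) were lower in odor pools. These were fewer than the share of 0.05 that chance alone gives where no gene differs. The percentage was 3.02% without vehicle replicate 1 and 3.96% with array weights, likewise below that share. Among replicates 1 to 4, the odor and vehicle signals did not overlap, with replicate 5 differing in the same direction, for 49 probe sets that were higher (0.221%) and 65 that were lower (0.293%). The SE of a difference had a median of 0.30 and its 95% confidence interval reached a median of 0.66 to either side. For 14939 probe sets (67.3%) the interval lay wholly within a 2-fold difference in either direction, so that larger differences fell outside it. Dim probe sets are counted in this share, as 10727 exceeded the background control on all 10 arrays and 5174 on 0 arrays. It was 31.8% for mature neuron genes, 27.8% for neutrophil granule protein genes and 13.6% for immediate early genes. Lists with a higher share were those of horizontal basal cell (87.5%), ensheathing glia (87.5%) and endothelial and stromal genes (75%), mostly dim. The mean difference of a probe set is called the change below, always odor minus vehicle on the log2 scale. Across all probe sets the median change was 0.02, or 0.01 after quantile normalization and 0.03 after centring every array at its median.

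**Figure D1:**
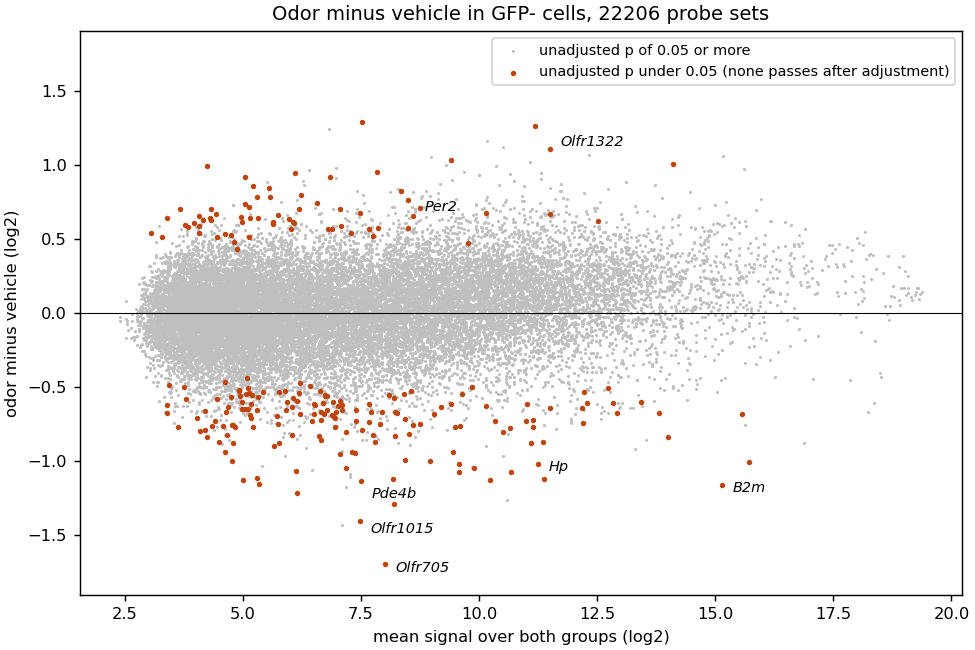
Change (odor minus vehicle, log2) of each of the 22206 probe sets in GFP- cells against its mean signal (log2). Orange points are the 234 probe sets with an unadjusted p under 0.05 and grey points the others, and 0 probe sets passed after adjustment.

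The smallest unadjusted p of all belonged to Pde4b, the gene of a phosphodiesterase that degrades cyclic AMP and is prominent in leukocytes. Its signals in odor pools 1 to 5 were 6.99, 6.51, 6.47, 6.34 and 8.34, and in vehicle pools 1 to 5 they were 7.80, 7.32, 7.72, 7.66 and 9.83. Within replicates 1 to 4 every odor pool was below every vehicle pool, and the odor array numbered 5 was below the vehicle array numbered 5. The change was -1.14 (SE 0.22, 95% interval -1.62 to -0.66) with a limma adjusted p of 1. It lay between -1.25 and -1.05 when any 1 array was left out.

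B2m, which encodes the invariant light chain of class I major histocompatibility molecules, had the next smallest p among the named genes. Odor pools had signals of 14.42, 14.50, 13.71, 14.28 and 15.91, and vehicle pools had 15.95, 15.30, 15.02, 15.77 and 16.59. The groups did not overlap within replicates 1 to 4, and the odor array numbered 5 was again the lower one of its pair. Its change was -1.16 (SE 0.27, limma adjusted p = 1). In GFP+ cells of the same pools the change of B2m was -0.64, and the difference between the fractions was -0.52 with an interval of -1.62 to 0.58.

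The remaining genes with the smallest p among the lower ones included several of granulocytes. Hp encodes haptoglobin, a haemoglobin-binding protein stored in neutrophil granules, and its odor signals were 10.28, 9.95, 10.26, 10.99 and 12.21 against vehicle signals of 11.10, 11.32, 11.38, 12.20 and 12.78. Prg2, the major basic protein of eosinophils, had odor signals of 7.40, 6.42, 6.44, 6.09 and 11.72 against 8.08, 7.95, 7.45, 8.37 and 11.81. The changes were -1.02 for Hp (SE 0.29) and -1.12 for Prg2 (SE 0.32). In both genes every odor pool of replicates 1 to 4 was below every vehicle pool of those replicates, and for Prg2 the arrays numbered 5 were far above the rest in both groups. Cd63, a tetraspanin of lysosomes and secretory granules, had a change of -0.76, with odor signals from 7.34 to 8.01 and vehicle signals from 8.28 to 8.86 in replicates 1 to 4. H2az2, a variant histone H2A gene, had a change of -0.79, with 6.44 to 7.11 against 7.39 to 7.81. Lrrc25 (-0.77), the ADP receptor gene P2ry1 (-0.79) and Disp2 (-0.83), with the odorant receptor gene Olfr705 described with its family, completed the 10 lower genes with the smallest p. Lrrc25, P2ry1 and Disp2 exceeded the background control on 1, 0 and 0 arrays.

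**Figure D2:**
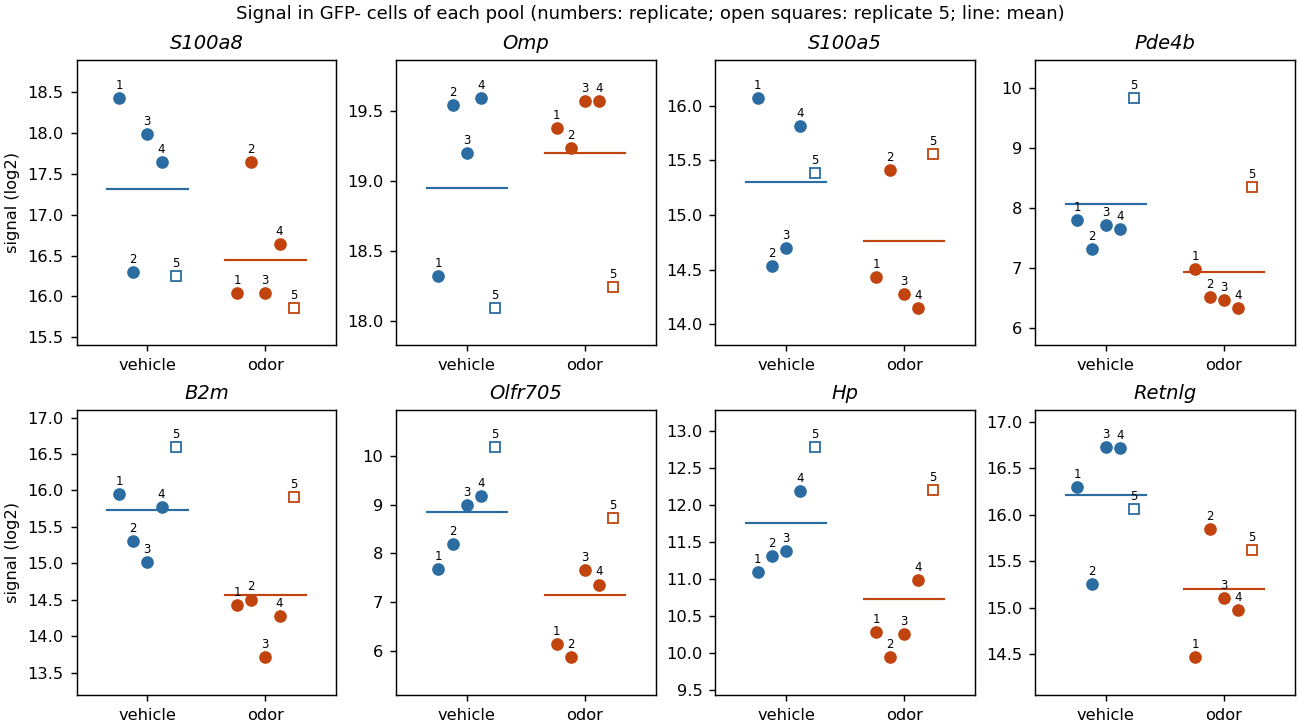
Signal (log2) of 8 genes in the GFP- cells of each pool, with vehicle in blue and odor in orange, the replicate number beside each point, open squares for the arrays numbered 5 and a line at the mean of the 5 pools. The groups of Pde4b, B2m and Hp separate within replicates 1 to 4, whereas those of S100a8, Omp and S100a5 overlap.

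Fewer of the 10 higher genes with the smallest p were well above background. Per2, a repressor of the circadian clock, had odor signals of 8.25, 9.25, 8.83, 8.54 and 9.80 and vehicle signals of 8.15, 8.16, 7.78, 7.93 and 9.39. All odor pools of replicates 1 to 4 exceeded all vehicle pools of those replicates, and the change was 0.65 (SE 0.24, limma adjusted p = 1). In GFP+ cells it was 0.12, and the difference between fractions was 0.53 with an interval of -0.23 to 1.30. The odorant receptor genes Olfr843 and Olfr1322 are described with their family. The other 7 were V1ra8 and Vmn1r82, both vomeronasal receptor genes, Slc6a3, the dopamine transporter gene, Krtap19-2, BC049715, Wfdc9 and Gm1123. Their changes ran from 0.59 to 0.86 and none exceeded the background control on more than 2 arrays.

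Neutrophil genes had the lowest list medians, although none of their members passed the adjusted test. In this and the following lists, members are counted at an unadjusted p under 0.05, where 0.311% of all probe sets were higher and 0.743% lower. Of all 22206 probe sets, 284 were higher and 386 lower without vehicle replicate 1. These counts were 74 and 173 without vehicle replicate 3, and 118 and 200 without vehicle replicate 4. The leave-one-out range of a list is that of its median over the 10 fits that each left out 1 array, and in 24 of the 38 lists it held both signs. When either array numbered 5 was left out, the batch term took up the other. Both then dropped out of the change, so these fits were the same. Of 18 measured genes for granule proteins, 4 were lower at that level (22.2%), 0 were higher, and 14 had a change below 0. Their median change was -0.45 (leave-one-out range -0.53 to -0.32) beside 0.02 for all probe sets and 0.10 for the same genes in GFP+ cells. In GFP+ cells Camp (3.80 to 4.69), Mmp9 (3.91 to 5.36) and, from the next list, Retnlg (4.30 to 6.60) were dim. The background control medians of the GFP- arrays were 5.14 to 6.32. A response of such genes in GFP+ cells could hardly be seen. The mean signal of the 18 genes was 11.82, 11.36, 11.56, 11.76 and 12.23 in odor pools and 11.80, 12.13, 11.98, 12.44 and 12.50 in vehicle pools. Odor and vehicle pools therefore overlapped narrowly among replicates 1 to 4, through vehicle replicate 1 and odor replicate 1. In such bulk samples, fewer cells of a type and less RNA per cell cannot be told apart.

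S100a8, which forms the antimicrobial protein calprotectin with S100a9, had odor signals of 16.04, 17.64, 16.04, 16.64 and 15.86. Its vehicle signals were 18.43, 16.30, 17.98, 17.65 and 16.25. Odor replicate 2 lay among the higher vehicle pools and vehicle replicate 2 among the lower odor pools, so the groups overlapped. The change was -0.88 (SE 0.43, interval -1.83 to 0.08, limma adjusted p = 1). Camp, the cathelicidin antimicrobial peptide gene, had a change of -1.13 and odor signals of 9.06 to 9.43 against 9.41 to 11.98 in replicates 1 to 4, and without vehicle replicate 1, its highest pool among these, the change was -0.73. Mmp9, the gelatinase stored in neutrophil granules, had a change of -1.12 with odor signals of 9.48 to 10.82 against 10.50 to 12.26. Pglyrp1, which binds bacterial peptidoglycan, had odor signals of 9.97, 9.79, 10.05, 10.74 and 10.74 and vehicle signals of 10.97, 10.80, 10.76, 11.37 and 11.28. Each odor pool of Pglyrp1 was below each vehicle pool of replicates 1 to 4, with a change of -0.78 (SE 0.25, limma adjusted p = 1). The bright markers Ngp and Lcn2, near the top of the scale, changed less. Their changes were -0.19 (interval -0.67 to 0.29) and -0.13 (interval -0.81 to 0.55). In this list 4 genes had a change above 0, the highest being 0.50.

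Surface and signalling genes of mature neutrophils also had a median below 0, whose size depended on single vehicle arrays. Of 15 genes, 3 were lower and 0 higher at an unadjusted p under 0.05, 14 had a change below 0, and the median change was -0.40 (0.00 in GFP+ cells). The median was -0.20 without vehicle replicate 3, and 1 of the 15 was lower without vehicle replicate 4. Without vehicle replicate 1 the median was -0.76 and 10 of the 15 were lower, where 386 of all probe sets (1.74%) were lower and 284 (1.28%) higher. Retnlg, a secreted resistin-like protein gene of neutrophils, had odor signals of 14.47, 15.85, 15.11, 14.98 and 15.62 and vehicle signals of 16.30, 15.25, 16.73, 16.72 and 16.06. Its groups overlapped through odor replicate 2 and vehicle replicate 2, with a change of -1.01 (SE 0.35). Stfa2, a gene of the stefin protease inhibitors, had a change of -1.29, and odor signals of 6.15 to 8.49 overlapped vehicle signals of 7.48 to 9.38 in replicates 1 to 4. Trem1, an amplifying receptor of inflammation (-0.83), and Csf3r, the receptor for granulocyte colony-stimulating factor (-0.76), did not reach an unadjusted p under 0.05.

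Other leukocyte lists had medians on the same side but few members at that level. Among 18 cytokine and chemokine genes, 15 had a change below 0, 1 was lower and 0 higher, and the median was -0.32 (leave-one-out range -0.37 to -0.21, the latter without vehicle replicate 3). Only 5 of these 18 genes exceeded the background control on all 10 arrays. The count of lower members was 4 without vehicle replicate 1 and 0 without vehicle replicate 4. Osm (oncostatin M) had a change of -0.82 and Ccl3, a chemokine gene of myeloid cells, one of -0.65, both with overlapping groups. Of 14 monocyte and macrophage genes 10 were below 0, with a median of -0.22 in GFP- cells and -0.24 in GFP+ cells. That of GFP- cells ranged from -0.39 without either array numbered 5 to -0.045 without vehicle replicate 3. Ly6c2, a surface protein gene of inflammatory monocytes, was the only member of this list lower at an unadjusted p under 0.05. Its odor signals of 13.14, 12.45, 11.65, 12.29 and 13.41 stood against 13.21, 13.34, 12.52, 13.12 and 14.11, and the change was -0.68 (SE 0.29). The ranges of Ly6c2 overlapped through odor replicate 1, and its change in GFP+ cells was -0.59, at signals of only 3.86 to 5.77 there.

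Antigen presentation genes held 2 lower members and 1 higher member out of 14, with 10 below 0 and a median of -0.25, which ranged from -0.42 without vehicle replicate 1, when 5 were lower, to -0.12 without vehicle replicate 2. In GFP+ cells it was -0.019. The lower ones were B2m and H2-D1, a class I heavy chain gene with a change of -0.67 and signals of 6.81 to 7.94 in odor pools and 7.65 to 8.70 in vehicle pools of replicates 1 to 4. H2-Aa, a class II chain gene, had a change of -0.60 without reaching that level. Itgax, an integrin gene of dendritic cells, was the higher member with a change of 0.52, but it exceeded the background control on 0 arrays. Lymphoid and red cell genes showed no member at an unadjusted p under 0.05. The medians were -0.10 for 11 B cell genes (leave-one-out range -0.26 to -0.043), -0.38 for 11 T and natural killer cell genes (-0.52 to -0.18) and -0.14 for 6 erythroid genes (-0.25 to -0.058). The lowest came without odor replicate 1, either array numbered 5 and vehicle replicate 1, and the highest without vehicle replicates 2, 3 and 2. In GFP+ cells the medians were 0.019, -0.092 and 0.078. The B cell list held Ebf1 (change 0.32), which was also among the regulators of receptor choice. Its signals were 15.03 to 17.59 in GFP- cells and 15.67 to 17.80 in GFP+ cells. The erythroid list held Car2, also among the guanylyl cyclase D and Ms4a neuron genes, at 11.87 to 14.54 and 11.80 to 13.70. These members therefore do not stand for blood cells alone. On all 10 GFP- arrays 7 of the B cell genes, 4 of the erythroid genes and only 2 of the T and natural killer cell genes exceeded the background control. Jchain, the joining chain gene of secreted antibodies, had a change of -0.85 with odor signals from 6.13 to 7.94 and vehicle signals from 6.54 to 9.23 in replicates 1 to 4. Among 12 interferon response genes 6 lay below 0 and 0 were called, and the sign of their median, which was 0.01 with centring, changed with the scaling (leave-one-out range -0.14 to 0.038). Ifit2 (0.53) and Usp18 (0.47) had the largest changes in that list, of which only 2 genes exceeded the background control on all 10 arrays.

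**Figure D3:**
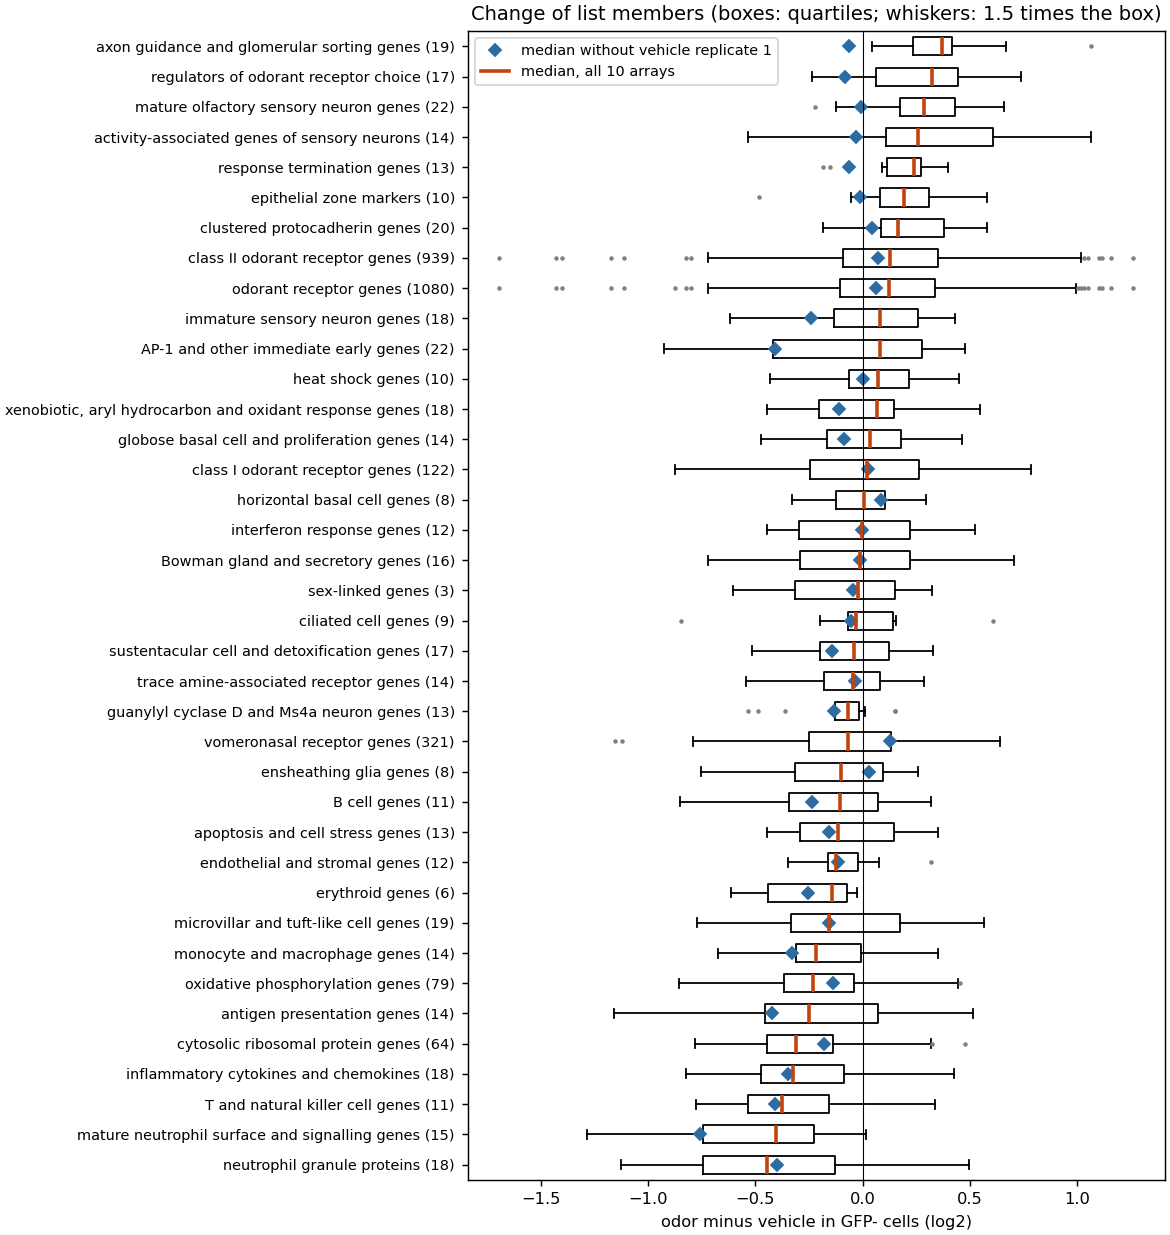
Change (odor minus vehicle, log2) in GFP- cells of the members of each gene list, with the number of measured members in brackets, boxes for quartiles, grey points beyond the whiskers, an orange line at the median and a blue diamond at the median without vehicle replicate 1. The neutrophil lists lie at the bottom, with medians of -0.45 and -0.40, whereas the medians of the uppermost neuronal lists move to near 0 without it.

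Genes of mature sensory neurons had a positive median change that rested on 1 vehicle array. Of 22 mature neuron genes 20 had a change above 0 and the median was 0.29, with 0 members at an unadjusted p under 0.05. Without vehicle replicate 1 the median was -0.01. The mean signal of the list was 16.03, 15.48, 16.19, 16.15 and 15.88 in odor pools and 14.44, 16.15, 15.71, 16.15 and 15.85 in vehicle pools, so that only vehicle replicate 1 lay below all the odor pools. Omp itself had odor signals of 19.38, 19.24, 19.57, 19.57 and 18.24 and vehicle signals of 18.32, 19.55, 19.20, 19.60 and 18.09. Its change was 0.25 (SE 0.27, interval -0.34 to 0.84) and 0.03 without vehicle replicate 1. Lhx2, a homeodomain regulator of neuronal identity and receptor expression, had a vehicle signal of 11.97 in replicate 1 and of 15.04 to 16.10 in the other vehicle pools, and its change of 0.66 became -0.09 without that array.

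Lists of genes that act in sensory neurons moved with the same array. All 19 axon guidance and glomerular sorting genes had a change above 0, with a median of 0.37 that was -0.06 without vehicle replicate 1. Kirrel2, an adhesion gene whose level depends on activity, had odor signals of 11.30, 9.44, 13.54, 13.49 and 15.29 and vehicle signals of 8.58, 12.21, 10.60, 14.87 and 13.46. The pools of Kirrel2 spread widely within each group, and its change of 0.67 (SE 1.11) became -0.06 without vehicle replicate 1. Regulators of receptor choice (17 genes, median 0.32), response termination genes (13 genes, 0.24) and epithelial zone markers (10 genes, 0.19) had 0 called members, and without that array their medians were -0.08, -0.06 and -0.01. Clustered protocadherin genes (20 genes) had a median of 0.16, or 0.04 without it.

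No gene known to follow neuronal activity passed the adjusted test in the GFP- cells. S100a5, the gene that drives the reporter, had odor signals of 14.43, 15.41, 14.28, 14.15 and 15.55 and vehicle signals of 16.07, 14.53, 14.69, 15.82 and 15.38. The groups overlapped over most of their range, and the change was -0.53 (SE 0.38, interval -1.36 to 0.29). Its signals of 14.15 to 16.07 in GFP- cells all lay below the 16.25 to 17.40 of GFP+ cells, without overlap. The 14 activity-associated genes had a median of 0.26 with 0 called, which ranged from -0.03 without vehicle replicate 1 to 0.44 without vehicle replicate 2. Sema7a, a semaphorin gene with activity-dependent expression, had a change of 1.07 that became 0.16 without that array, where its signal was 7.88 against 11.56 to 13.45 in the other vehicle pools. The 22 immediate early genes, transcription factors and signalling genes induced within minutes of stimulation or of cell handling, had a median of 0.08 with 1 lower and 0 higher, and -0.41 without vehicle replicate 1, when 19 lay below 0 and 3 were lower. It was also below 0 without odor replicate 1 (-0.14) and odor replicate 3 (-0.10). The lower one was Ier2, with a change of -0.63 and odor signals of 9.12 to 9.60 against 9.49 to 10.60 in replicates 1 to 4. Nr4a3 (-0.93) and Btg2 (-0.90) had larger changes and wider spreads, with SEs of 0.66 and 0.49.

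Progenitor and supporting cell lists held no member at an unadjusted p under 0.05. Immature neuron genes (18) had a median of 0.08 that ranged from -0.24 without vehicle replicate 1 to 0.36 without vehicle replicate 4, and Gng8, a G protein gamma subunit gene of immature neurons, had a change of -0.62 (SE 0.62). The 14 globose basal cell and proliferation genes had a median of 0.03 (-0.09 without that array to 0.14 without vehicle replicate 4) and the 8 horizontal basal cell genes one of 0.01 (-0.050 without vehicle replicate 2 to 0.086 without vehicle replicate 1), each with 0 called. Top2a, needed for chromosome separation in dividing cells, had a change of -0.48 with odor signals of 5.87 to 6.41 and vehicle signals of 6.09 to 7.03 in replicates 1 to 4. The 17 sustentacular and detoxification genes had a median of -0.04, with 10 below 0 and 0 called, and a range of -0.26 without either array numbered 5 to 0.15 without vehicle replicate 3. Cyp2a4, a cytochrome P450 gene, had a change of -0.52 (SE 0.46), and Cyp1a2, the P450 gene known for its induction by smoke hydrocarbons in liver, one of -0.26 (SE 0.45, interval -1.25 to 0.73).

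Inhaled smoke constituents can induce detoxifying enzymes, but whether the artificial odor mixture held such constituents was not given in the sources used here. A list of 18 xenobiotic, aryl hydrocarbon and oxidant response genes was examined. It held 0 members at an unadjusted p under 0.05 and 8 below 0. Its median of 0.07 was -0.02 after quantile normalization, -0.11 without vehicle replicate 1, -0.060 without vehicle replicate 3 and -0.030 without odor replicate 1. Gclm, a subunit gene of the enzyme that starts glutathione synthesis, had odor signals of 12.60, 11.82, 12.66, 12.65 and 13.53 and vehicle signals of 10.21, 12.60, 11.63, 13.08 and 12.99. Vehicle replicates 1 and 3 lay below all odor pools, and the change of 0.55 became 0.12 without vehicle replicate 1. Mt2, a metallothionein gene that binds metals, had a change of -0.45 (SE 0.41) and Txnrd1, the thioredoxin reductase gene, one of 0.42 (SE 0.51) that became -0.12 without vehicle replicate 1. Cyp1a1, Cyp1b1, Aldh3a1 and Gsta2 exceeded the background control on 0 arrays, and their changes are not given.

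Medians of the other epithelial lists changed sign with single arrays in most cases. Bowman gland and secretory genes (16) had 8 below 0 and a median of -0.01, or 0.01 with centring, and ranged from -0.13 without odor replicate 1 to 0.22 without odor replicate 3. Scgb1c1, a secretoglobin gene of the olfactory glands, had a change of -0.72 (SE 0.42) and Gpx6, a glutathione peroxidase gene of the olfactory epithelium, one of 0.71 (SE 0.43). Microvillar and tuft-like cell genes (19) had 13 below 0 and a median of -0.16, which was 0.019 without vehicle replicate 3 and -0.0023 without odor replicate 2. Ascl3, a transcription factor gene of microvillar and gland cells, had a change of -0.77 (SE 0.41), and Coch one of -0.63 that became 0.02 without vehicle replicate 3. Guanylyl cyclase D and Ms4a neuron genes (13) had a median of -0.07, endothelial and stromal genes (12) one of -0.12 and ensheathing glia genes (8) one of -0.10, which was 0.03 without vehicle replicate 1. The leave-one-out ranges of the former lists stayed below 0, at -0.13 to -0.028 and -0.14 to -0.065, the highest without vehicle replicates 2 and 3. Erbb3, a neuregulin receptor gene of glia, was the 1 lower member of these, with a change of -0.76, and exceeded the background control on 2 arrays. Of 9 ciliated cell genes, with a median of -0.03 that was 0.19 without vehicle replicate 2, 1 was higher. This was Dnah5, a motor protein gene of cilia, with odor signals of 6.49, 6.13, 6.46, 6.38 and 6.52 and vehicle signals of 5.31, 5.39, 6.26, 5.61 and 6.38. Its groups overlapped through vehicle replicate 3, and the change was 0.61 (SE 0.24).

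**Figure D4:**
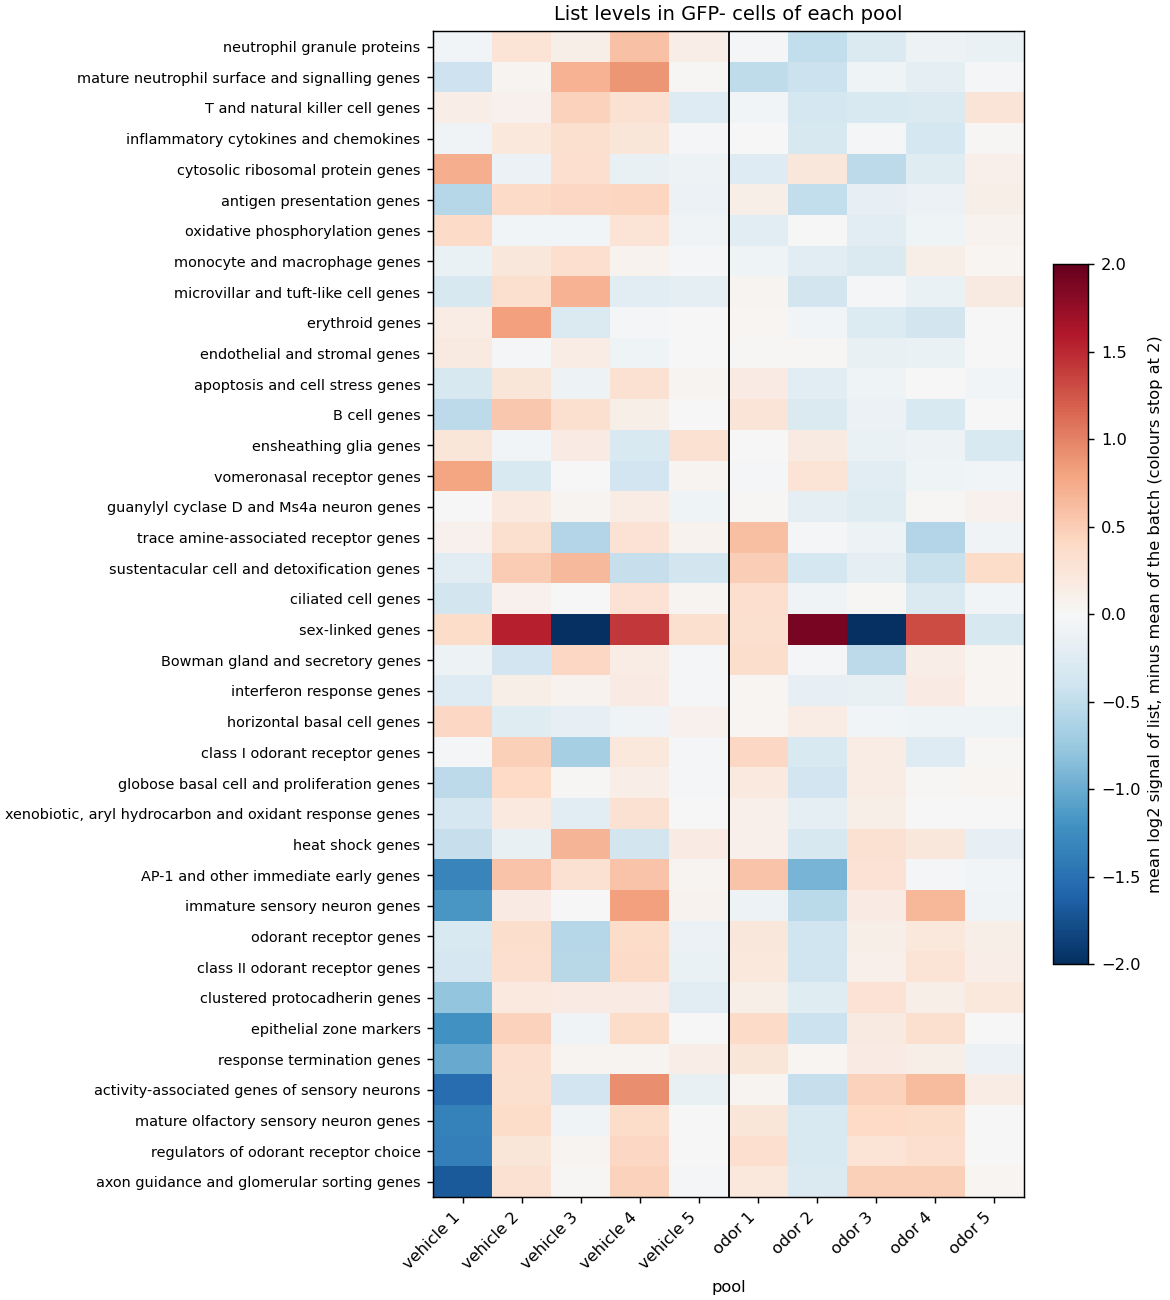
Mean signal of each gene list (log2) in the GFP- cells of each pool, minus the mean of the arrays numbered 1 to 4 or of the arrays numbered 5, in red above and blue below that mean. Vehicle replicate 1 is dark blue in the neuronal lists at the bottom (-1.68 for axon guidance genes), and the sex-linked genes are lowest in both pools numbered 3.

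Housekeeping lists had medians below 0. Of 64 cytosolic ribosomal protein genes 56 had a change below 0, with a median of -0.31, or -0.18 without vehicle replicate 1, and 0 were called. Rpl35 had odor signals of 11.21, 11.92, 10.26, 10.28 and 12.53 and vehicle signals of 13.73, 11.25, 11.72, 11.14 and 12.27. Vehicle replicate 1 was the highest of all pools, and the change of -0.78 (SE 0.53) was -0.29 without it. Of 79 oxidative phosphorylation genes 62 were below 0, with a median of -0.23 (-0.14 without that array). The 1 lower member was Ndufc1, a subunit gene of respiratory complex I, with a change of -0.61, odor signals of 12.06 to 12.50 and vehicle signals of 12.21 to 13.46 in replicates 1 to 4. Heat shock genes (10) had a median of 0.07 (-0.012 without vehicle replicate 2) and apoptosis and cell stress genes (13) one of -0.11 (0.034 without odor replicate 2), both with 0 called. Bag3, a co-chaperone gene, had a change of 0.45 (SE 0.27), and Atf4, a transcription factor gene of the integrated stress response, one of -0.45 (SE 0.29).

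Odorant receptor genes, of which 1080 were measured, were widely detected in the GFP- cells, and 725 exceeded the background control on all 10 arrays. At an unadjusted p under 0.05, 20 were higher (1.85%) and 7 lower (0.648%), beside 0.311% and 0.743% of all probe sets. Together these receptors were also fewer than the share of 0.05 that chance alone gives where no gene differs. The change was above 0 for 686 receptors and the median was 0.12, against -0.05 for the same genes in GFP+ cells. The median lay between -0.01 without vehicle replicate 3 and 0.24 without odor replicate 2. Leaving out vehicle replicate 3 gave 4 higher and 18 lower receptors, beside 74 higher and 173 lower of all 22206 probe sets. Leaving out vehicle replicate 4 gave 41 higher and 7 lower receptors, beside 118 and 200 of all probe sets. In addition, the mean signal of the family was itself uneven between pools. It was 7.89, 7.27, 7.78, 7.88 and 9.38 in odor pools and 7.35, 8.01, 7.09, 8.02 and 9.14 in vehicle pools, with vehicle replicates 1 and 3 and odor replicate 2 low. The part of these levels in the receptor counts was not tested. Only 440 of the 1080 receptors (40.7%) had an interval within a 2-fold difference either way.

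Olfr705 had the most negative change among the named receptors. Its odor signals were 6.15, 5.87, 7.66, 7.36 and 8.72 and its vehicle signals 7.69, 8.20, 8.99, 9.18 and 10.17. All odor pools of replicates 1 to 4 lay below all vehicle pools of those replicates, though odor replicate 3 and vehicle replicate 1 lay close together. The change was -1.70 (SE 0.41, interval -2.60 to -0.80, limma adjusted p = 1). Olfr1015 (-1.40), Olfr1132 (-1.11), Olfr644 (-0.87) and Olfr495 (-0.83) followed in order of size among the 5 lower receptors with the smallest p. Olfr495 had odor signals of 6.64 to 7.04 and vehicle signals of 7.19 to 8.51 in replicates 1 to 4, without overlap. Olfr1015 overlapped, with 5.06 to 7.05 against 6.93 to 8.42.

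Among higher receptors, Olfr1322 had odor signals of 11.50, 12.06, 11.50, 11.97 and 13.23 and vehicle signals of 10.44, 11.71, 9.84, 11.28 and 11.47. The ranges overlapped through vehicle replicate 2, and the change was 1.10 (SE 0.36, limma adjusted p = 1). Olfr843 had odor signals of 10.28, 10.35, 9.97, 10.35 and 11.50 and vehicle signals of 9.39, 9.95, 9.27, 9.58 and 10.91. Its groups did not overlap within replicates 1 to 4, and the change was 0.67 (SE 0.21, limma adjusted p = 1). Olfr195 (1.03), Olfr1225 (0.95) and Olfr259 (0.70, not above the background control on any array) completed the 5 with the smallest p. Olfr1213 had the largest change of those named, 1.26 (SE 0.56), with odor signals of 10.44 to 12.56 overlapping vehicle signals of 9.26 to 12.12.

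The receptor subfamilies were counted in the same way, without a test between them. The 122 class I receptors, the group related to fish receptors, had 0 higher and 2 lower members and a median of 0.02 that was -0.14 without vehicle replicate 3. The 939 class II receptors had 20 higher and 5 lower members and a median of 0.13, with 4 higher and 14 lower and a median of 0.0033 without vehicle replicate 3. Without that array 74 of all 22206 probe sets were higher and 173 lower. Among 14 trace amine-associated receptor genes 0 were called, 8 lay below 0 and the median was -0.05 (leave-one-out range -0.24 to 0.064). The 321 vomeronasal receptor genes, which belong to another sensory organ, had 3 higher and 4 lower members and a median of -0.07. Only 2 of them exceeded the background control on all 10 arrays and 182 did so on 0 arrays. Their counts and medians therefore describe mostly background signals. Without vehicle replicate 1 there were 14 higher and 2 lower members, beside 284 and 386 of all 22206 probe sets, and the median was 0.13. In that array Vmn1r112 had a signal of 8.02 against 5.09 to 5.55 in the other vehicle pools.

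**Figure D5:**
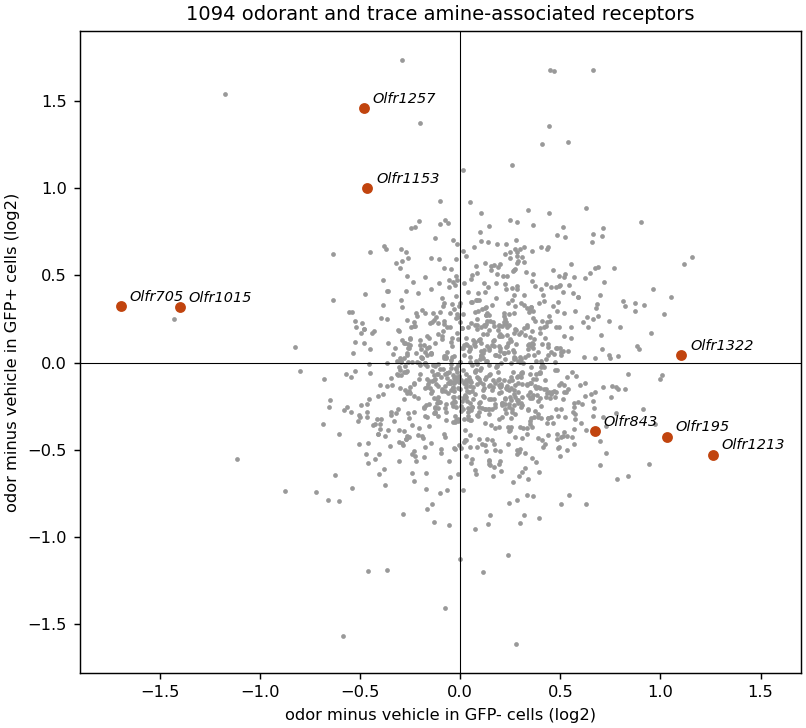
Change (odor minus vehicle, log2) of 1080 odorant and 14 trace amine-associated receptor genes in GFP- cells on the horizontal axis and in GFP+ cells of the same pools on the vertical axis. Orange points are named: Olfr705 lies at -1.70 and 0.32, and Olfr1257 at -0.48 and 1.46.

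Whether the GFP- cells differed from the GFP+ cells of the same pools in their response was tested on the differences between the fractions of each pool. In limma 0 of 22206 probe sets (0%) passed at an adjusted p under 0.05. Without adjustment, 250 (1.13%) had a p under 0.05, 104 higher (0.468%) and 146 lower (0.657%) in GFP- relative to GFP+ cells. These too were fewer than the share of 0.05 that chance alone gives where no gene differs. Among the 5 genes with the smallest p, 3 were odorant receptors. Olfr1257 had a change of -0.48 in GFP- cells and 1.46 in GFP+ cells, a difference of -1.94 (interval -2.85 to -1.03). Olfr705 had -1.70 and 0.32, a difference of -2.02 (interval -3.11 to -0.93), and Olfr1153 had -0.46 and 1.00, a difference of -1.46 (interval -2.29 to -0.64). In all 3 the change was below 0 in GFP- cells and above 0 in GFP+ cells of the same pools. They were picked by this difference, which favours opposite signs, so the shared pattern is not a separate result. Pglyrp1 had a change of -0.78 in GFP- cells and 0.45 in GFP+ cells, a difference of -1.23 (interval -1.92 to -0.55). Its GFP+ signals were only 5.02 to 6.72, where a response could hardly be seen. The remaining gene, 5430402E10Rik, differed by -1.06 and exceeded the background control on 1 array.

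For the leukocyte genes named above, the differences between the fractions had wide intervals. S100a8 had a change of -0.88 in GFP- cells and 0.16 in GFP+ cells, and the difference of -1.04 had an interval of -2.20 to 0.13. Pde4b had -1.14 in GFP- cells and 0.00 in GFP+ cells, a difference of -1.14 with an interval of -2.09 to -0.19 that did not pass after adjustment. Prg2 had -1.12 and 0.25, a difference of -1.37 (interval -2.15 to -0.58), likewise with an adjusted p above 0.05. In GFP+ cells the signals of Pde4b and Prg2 were only 4.46 to 6.26 and 4.49 to 6.72, where a response could hardly be seen. None of these differences between the fractions therefore passed the test over all probe sets.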

How the data were processed

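RNA of GFP- cells from 10 pools was measured on Clariom S arrays, 5 odor and 5 vehicle, each pool being 3 separate mice. The authors deposited 1 log2 signal for each probe set and array, a scale taken from the range of the values. Per the submitters' processing notes they used Affymetrix Expression Console. For its version and its normalization, nothing was given in the sources used here. An array has no read depth, so precision rests on the 5 pools of each group. The values were used as deposited. Of 28846 entries, 6640 controls were left out and 22206 probe sets were kept with no filter. Of these, 19572 had a gene symbol and all of them matched the RefSeq gene table of GRCm38.p6 by Entrez gene ID. Gene lists used 1 probe set per gene, that with the highest mean.

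limma 3.58.1 in R 4.3.3 (lmFit, eBayes) fitted odor minus vehicle with a term for the arrays numbered 5, with Benjamini-Hochberg adjustment at 0.05 over all probe sets. A second fit used the within-pool differences between GFP- and GFP+ signals. The procedure was tested on simulated data. The file holds no detection calls, so a signal was called above background where it exceeded the median background control of its array. Class I receptors were those with older family numbers up to 42.

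Named genes were S100a8, Omp and S100a5, the 10 with the smallest p in each direction, the 5 receptors with the smallest p in each direction, from every list at most 4 genes with the largest changes and at most 3 bright ones, and the 5 with the smallest p for the difference between fractions. The comparison and its lists were chosen with earlier results of these data known. The alternatives were other scalings, filters, priors, weights and batch treatments, a replicate block, and leaving out each array.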

Additional observations from a re-analysis of the deposited data

Results flagged for a closer look

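For each named gene the gap between the most extreme pool of a group of 5 and its nearest neighbour was divided by the range of the group and compared with Dixon's critical value of 0.71. Chance passes about 1 in 20 groups, and 29 of 236 groups passed, 21 of them at an array numbered 5, which belongs to the batch with higher signals. In the odor group, the array numbered 5 was highest for Olfr843 (ratio 0.756), Wfdc9 (0.722), Lrrc25 (0.883), P2ry1 (0.735), Prg2 (0.767), Cd63 (0.764), Olfr495 (0.831), Camp (0.839), Alas2 (0.784), Ier2 (0.831), Txnrd1 (0.797) and Atf4 (0.738). It was lowest for Omp (0.747) and for the inducible heat shock gene Hspa1b (0.916), which had a signal of 8.27 there and 13.41 to 13.88 in the other odor pools. In the vehicle group, the array numbered 5 was highest for Per2 (0.765), Pde4b (0.807), H2az2 (0.77), Lrrc25 (0.762), Prg2 (0.79), Cd63 (0.763) and Gadd45a (0.742).

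Vehicle replicate 1 was lowest for the neuronal genes Lhx2 (0.742), Ncam2 (0.824) and Nfia (0.823), for Sox9 (0.848), a transcription factor gene of gland cells, and for the receptor gene Olfr586 (0.753). It was highest for Vmn1r112 (0.841). Odor replicate 2 was lowest for Lhx2 (0.745) and Ncam2 (0.725), at signals of 14.38 and 13.55.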

How the results depend on the processing

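Under each of the 18 alternative settings, limma at an adjusted p under 0.05 passed 0 probe sets for either comparison. Leaving out either array numbered 5, or both, gave the same fit, so the settings were not all distinct. At an unadjusted p under 0.05 the 234 probe sets of GFP- cells became 880 with array weights, which gave vehicle replicate 1 a weight of 0.135, and 30 without the batch term, and ranged from 166 to 670 when 1 array was left out, the highest without vehicle replicate 1. For the difference between fractions, 250 became 436 with quantile normalization and 560 with array weights, and ranged from 174 to 699, with 699 without vehicle replicate 1 and 494 without vehicle replicate 2. With the replicate block the counts were 190 and 186. Same-numbered pools deviated together with correlations of 0.144, -0.378, 0.277, 0.196 and 0.842, and 4 of 10 arrays correlated best with their own number. The deviations were taken from the mean of all 5 arrays of a group, and the pools numbered 5 share the batch with higher signals. With that shift left in, the check could not decide whether the pools numbered 1 to 4 were paired. The Y-linked genes were lowest in both pools numbered 3. Not every correlation exceeded 0.1, and the main fit did not treat the numbers as pairs, whereas the replicate block did. Of 115 named changes, 103 kept their sign throughout and 12 did not, 7 of these without vehicle replicate 1. Array weights gave Txnrd1 -0.066, Slc24a4 -0.078 and Uty -0.80, quantile normalization gave Kdm5d 0.16, and leaving out both pools numbered 5 gave Kdm5d 0.0875. Leaving out 1 array gave ranges of -0.61 to 0.036 for Cdh5, -1.16 to 0.019 for Coch, -1.77 to 0.47 for Eif2s3y, -0.99 to 0.0069 for Hspa1b, -0.65 to 0.70 for Kdm5d, -0.063 to 1.56 for Kirrel2, -0.086 to 0.98 for Lhx2, -0.050 to 1.14 for Olfr586, -0.024 to 0.97 for Slc17a6, -0.27 to 0.65 for Slc24a4, -0.12 to 0.66 for Txnrd1 and -0.57 to 1.16 for Uty. Of 38 list medians 24 changed sign when some 1 array was left out, 12 of them without vehicle replicate 1, and 12 that were below 0 and 2 that were above 0 kept their sign. The causes were not tested. The arrays numbered 5 alone, 1 in each group, allowed no test. Dim signals and the 5 pools per group limit what could be seen.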

Other observations

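The genes that varied most between the GFP- arrays numbered 1 to 4 were singled out after their values were seen. Dusp1, an immediate early phosphatase gene, had the largest SD (2.70). Its odor signals were 16.97, 13.69, 17.76, 17.31 and 17.02 and its vehicle signals 10.45, 17.57, 17.49, 18.16 and 16.83. Fos, the immediate early transcription factor gene, had odor signals of 13.08, 9.26, 12.60, 12.13 and 14.75 and vehicle signals of 7.19, 13.33, 13.15, 13.37 and 14.20. Both genes were lowest in vehicle replicate 1 and next lowest in odor replicate 2, and neither separated the groups. Mapk10, a neuronal stress-activated kinase gene, was at 10.75 in vehicle replicate 1 and 13.71 in odor replicate 2, and at 15.73 to 16.86 in the other 8 pools.

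Rmrp and 2900060B14Rik went the opposite way in the same arrays. Rmrp, the RNA component of a mitochondrial RNA processing ribonuclease, had its highest signal, 17.16, in vehicle replicate 1, with 15.63 in vehicle replicate 3 and 14.99 in odor replicate 2. The transcript 2900060B14Rik reached 18.93 in vehicle replicate 1 and 16.44 in odor replicate 2, against 11.52 to 15.96 in the other 8 pools.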
